A study of Mus musculus with 6 samples.

Results

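S100 proteins are small calcium-binding proteins that change shape when calcium enters the cell and then grip a partner protein. S100a8 and S100a9 join into calprotectin, which neutrophils and monocytes store in large amounts and which inflamed or stressed epithelia also make. Released calprotectin binds zinc and manganese and is a ligand of the receptors Tlr4 and Ager, while other S100 proteins stay inside the cell and act on annexins, myosin or other targets. Expression of 10 members of the family was followed here: S100a8, S100a9, S100a1, S100a4, S100a6, S100a10, S100a11, S100a13, S100a14 and S100a16. They were found as the gene probes whose annotated transcript maps to one of these symbols. This gave 13 probes of 55681 gene probes on the array, and all 10 members passed the filter on dim probes and were among the 22503 genes or unnamed transcripts tested.

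The arrays compared RANK-/- with RANK+/+ mouse tumor cells. RANK, encoded by Tnfrsf11a, is the receptor of RANK ligand and signals to NF-kB. Late carcinoma cells of MMTV-PyMT tumors, which arise under a mammary-active viral promoter that drives the polyomavirus middle T oncogene, were placed in the mammary gland of syngeneic C57BL/6 hosts. RANK+/+ and RANK-/- cells were both grown this way. Grown tumors were dissociated and live cells without the leukocyte marker CD45 were sorted for RNA. There were 3 RANK-/- and 3 RANK+/+ RNAs, hybridized as 3 pairs of 1 RNA of each genotype, with 2 technical arrays (A and B) per pair. Whether the RNAs of one genotype stem from separate tumors is not stated in the labels, so p values may measure technical spread only. The RANK-/- RNA was labeled with Cy5 in pair 1 and with Cy3 in pairs 2 and 3, so pair 1 and the dye arrangement cannot be told apart.

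Between 51.9% and 58.8% of gene probes were well above background per channel, and no spot was saturated (0 on each array). The gene that should differ by design did not follow the labels. Tnfrsf11a was higher in the RNA labeled RANK-/- in all 3 pairs, with log2 ratios of 2.03, 1.15 and 1.76 (mean 1.65 ± 0.45 SD, n = 3). Where this probe lies relative to the deleted part of the gene was not analysed here. Because this gene goes against the labels, every direction below is that of the RNAs labeled RANK-/- and RANK+/+.

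Across the 3 pairs no S100 member passed the test of genotype. In limma with Benjamini-Hochberg adjustment over all genes, each of the 10 members had an adjusted p of 0.999. No gene on the array was called (0%), and 646 genes (2.87%) had an unadjusted p under 0.05, S100a14 being the only member among them. The rank product test called 10 genes as higher (0.0444%) and 8 as lower (0.0356%) in the RNA labeled RANK-/-, with no member in either set. For each member, the range of the 3 RNAs labeled RANK-/- overlapped that of the 3 RNAs labeled RANK+/+ (0 of 10 without overlap, against 7.48% of all genes). The members instead differed from pair to pair. Their median SD between pairs was 0.971 on the log2 ratio scale, against 0.329 for all genes tested and 0.396 for the 11252 brightest of them, which held 9 of the 10 members. The SD between technical arrays was no larger for members than for other genes (median 0.063 for both).

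**Figure D1:**
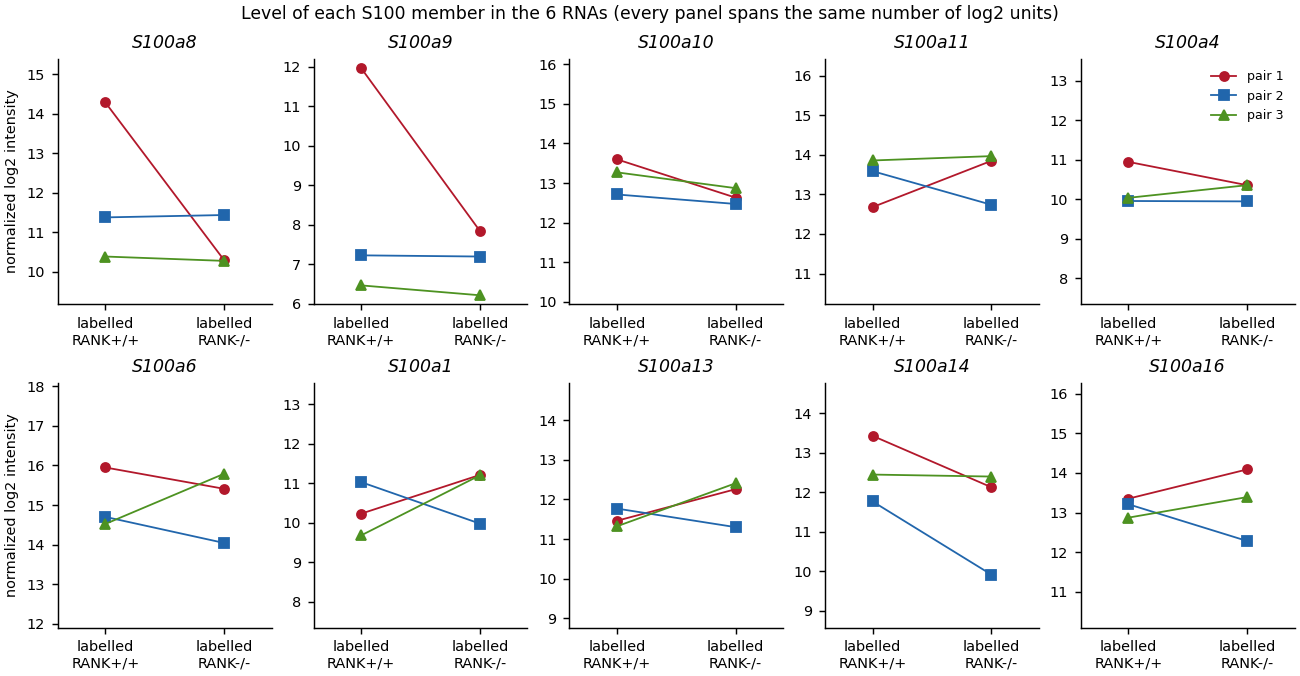
Normalized log2 intensity of each S100 member (one panel per gene) in the RNA labeled RANK+/+ and the RNA labeled RANK-/- of each pair, arrays A and B averaged; lines join the RNAs of a pair, and panels differ in position but span the same number of log2 units. The RANK+/+ RNA of pair 1 holds the highest S100a8 (14.29) and S100a9 (11.97), and the RANK-/- RNA of pair 2 holds the lowest S100a14 (9.92).

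Calprotectin made the largest difference among the members, and it lay in pair 1. S100a8 had a normalized log2 intensity of 14.29, 11.38 and 10.39 in the RNAs labeled RANK+/+ of pairs 1, 2 and 3. In the RNAs labeled RANK-/- it was 10.30, 11.44 and 10.28. The RANK+/+ RNA of pair 1 stood alone, 7.21-fold above the next RNA, and the other 5 RNAs of both genotypes lay between 10.28 and 11.44. S100a9, measured by its own probe, gave 11.97, 7.23 and 6.47 in the RNAs labeled RANK+/+. It gave 7.85, 7.20 and 6.22 in those labeled RANK-/-. The same RNA was again highest, here 17.4-fold above the next. In pair 3 the S100a9 probe was not well above background on either array in the RANK-/- channel, whereas it was on both arrays in every other RNA.

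The difference was visible in the unprocessed spots. On array A of pair 1 the S100a8 spot had a median signal of 1312 in the RANK-/- channel over a local background of 62, and of 16705 in the RANK+/+ channel over a background of 31. Array B gave 1403.5 and 16466. The S100a9 spot read 237 and 3476 on array A, and 243.5 and 3081.5 on array B. In pair 3 the S100a9 spot of the RANK-/- channel read 38 over a background of 33 on array A and 42 over 36 on array B, at the edge of detection.

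As log2 ratios of the RNA labeled RANK-/- over that labeled RANK+/+, S100a8 gave -3.99, 0.07 and -0.11 in pairs 1, 2 and 3 (mean -1.35 ± 2.30 SD, n = 3, limma adjusted p = 0.999). S100a9 gave -4.12, -0.04 and -0.25 (mean -1.47 ± 2.30 SD, n = 3, limma adjusted p = 0.999). In pair 1 the RNA labeled RANK-/- thus held 15.9-fold less S100a8 and 17.4-fold less S100a9. In pair 1 the ratios stayed between -4.12 and -3.75 for S100a8, and between -4.61 and -3.90 for S100a9, over the background and normalization settings tried. In pair 2 the values were near 0, and each gene's sign changed in 1 of these settings. Pair 3 moved more, to -0.69 for S100a8 under median centring and to -1.21 for S100a9 with Agilent's processed signals, where the S100a9 probe was not well above background in the RANK-/- channel. The mean ratios rest on pair 1. Without it they were -0.02 for S100a8 and -0.14 for S100a9. Since the cells were measured in bulk, fewer cells that make calprotectin and less RNA per cell cannot be told apart.

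A limma F test asked whether the 3 pair ratios of a gene differed by more than its technical arrays did. It called all 10 members after adjustment, with S100a8 at 3.46e-10 and S100a9 at 2.62e-09. It also called 88.4% of the 22441 genes with a ratio on all arrays, so the call by itself sets no member apart. The size of the spread did differ between genes. The SD of S100a8 and of S100a9 between pairs, 2.30 for each, was at least as large as that of 99.7% of all genes. A fall of at least 2-fold in pair 1 was seen for 3 members (S100a8, S100a9 and S100a14), against 2.84% of all genes.

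**Figure D2:**
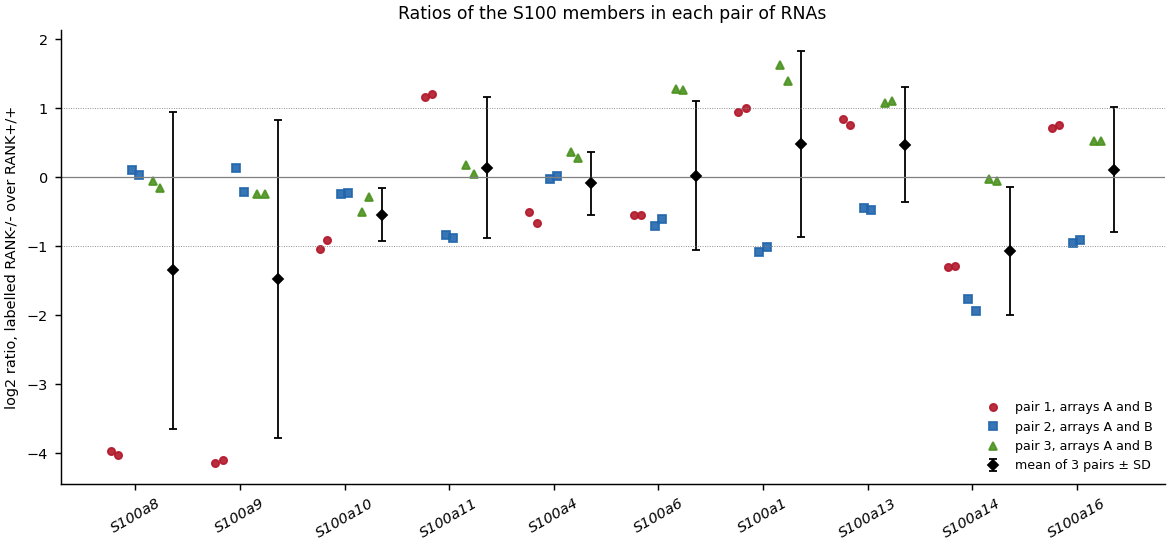
Log2 ratio of the RNA labeled RANK-/- over that labeled RANK+/+ for each S100 member; colored points are arrays A and B of pairs 1 to 3, diamonds and bars are the mean of the 3 pairs ± SD, and dotted lines mark 2-fold. Arrays A and B lie close together, whereas the pairs of most genes lie far apart, as for S100a8 at -3.99, 0.07 and -0.11.

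The calprotectin genes are neighbors transcribed in opposite directions. As they moved together in pair 1, the 250 bases before each gene start are shown from the RefSeq promoter table of GRCm38.p6, which held 8 of the 10 members (all but S100a10 and S100a14). The S100a8 stretch is chr3:90668821-90669070 on the plus strand, and the S100a9 stretch is chr3:90695722-90695971 on the minus strand. Both are written 5′ to 3′ in the direction of transcription, and capitals mark every match, on either strand, to 6 short motifs.
S100a8: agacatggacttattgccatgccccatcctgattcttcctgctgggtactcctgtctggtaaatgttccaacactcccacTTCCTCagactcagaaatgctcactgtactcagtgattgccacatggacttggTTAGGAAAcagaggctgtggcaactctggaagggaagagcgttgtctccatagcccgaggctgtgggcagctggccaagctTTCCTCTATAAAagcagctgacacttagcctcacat
S100a9: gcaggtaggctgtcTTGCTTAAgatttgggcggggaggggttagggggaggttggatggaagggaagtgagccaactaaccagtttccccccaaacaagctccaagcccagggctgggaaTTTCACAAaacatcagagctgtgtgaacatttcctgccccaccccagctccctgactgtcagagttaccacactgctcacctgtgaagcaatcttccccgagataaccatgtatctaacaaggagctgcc

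The motifs searched were the TATA box (TATAAA), a relaxed C/EBP pattern (TTNNGNAA), the NF-kB consensus, STAT (TTCNNNGAA), AP-1 (TGANTCA) and ETS (GAGGAA). C/EBP and ETS factors are known drivers of myeloid genes, and NF-kB is the pathway that RANK engages. S100a8 held a TATA box 30 bases before its start, adjoining an ETS match at 36 bases, with a second ETS match at 170 bases and a C/EBP match at 117 bases. S100a9 held C/EBP matches at 236 and 130 bases and no TATA box. The C/EBP pattern, the only motif in both, occurs in 36.8% of the 32851 promoters searched, the ETS pattern in 23.3% and the TATA box in 12.4%. This search left out a chromosome of the table. Neither stretch matched the NF-kB, STAT or AP-1 motif, which occur in 3.90%, 7.02% and 6.75% of promoters. These matches describe letters in a window and are not measured binding sites.

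Markers of leukocytes were examined beside calprotectin, since the sort was meant to remove CD45+ cells. Of 9 tested general leukocyte genes, 7 were lower in the RNA labeled RANK-/- of pair 1, with a list median of -0.58 against 0.02 for all genes. With that median, about as many of all genes were lower as higher in pair 1. In pairs 2 and 3 the list median was 0.16 and 0.26. Ptprc, which encodes CD45 itself, gave -0.93, 0.10 and 0.14, and its log2 intensity was 7.38 in the RANK+/+ RNA of pair 1 and between 6.08 and 6.45 in the other 5 RNAs. Tyrobp, a signaling adaptor of myeloid cells, gave -1.32, 0.63 and 0.51, and Coro1a, an actin regulator of leukocytes, gave -0.92, -0.01 and 0.07. Cd52, the highest of the list by mean ratio, gave -0.39, 0.30 and 1.58. The macrophage list ran the same way, with 9 of 10 tested genes lower in pair 1 (median -0.32, then 0.42 and 0.16). Its summed intensity was 5400 in the RANK+/+ RNA of pair 1, between 2130 and 3070 in the other RANK+/+ RNAs and between 2650 and 3870 in the RNAs labeled RANK-/-. For the leukocyte list the sums were 9420 to 11200 in the RNAs labeled RANK+/+ and 7370 to 14200 in those labeled RANK-/-. Lcp1, an actin bundler, and Cytip, an adhesion regulator, carried 65.6% to 92.0% of that sum over the tested genes. They were the only tested genes of the list that were higher in pair 1, with ratios of 0.49, -0.52 and 0.44 for Lcp1 and 1.61, -1.28 and -0.36 for Cytip. Without them, left out after their values were seen, the other 7 summed to 3560 in the RANK+/+ RNA of pair 1, to 749 and 1150 in the other RANK+/+ RNAs, and to 1090 to 2200 in the RNAs labeled RANK-/-. These 7 are the tested genes that were lower in pair 1, so the lower RANK-/- sum of that pair was fixed by the choice.

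Neutrophil genes moved less than calprotectin in pair 1. The median of the 13 tested neutrophil genes, of 23 with a probe, was -0.28, 0.00 and 0.14 in pairs 1, 2 and 3. In pair 1, 8 of the 13 were lower, where all genes split near evenly (median 0.02). By size, 4 of the 13 fell at least 2-fold there, against 2.84% of all genes. These were Stfa1, Stfa3, Prtn3 and Padi4, the last with -1.02, -0.46 and 1.30. The largest rise of the list in pair 1 was 0.42. Among the lowest by mean ratio, the stefin Stfa1 gave -1.67, -1.55 and 1.00, the stefin Stfa3 gave -1.37, -0.26 and 0.04, and Camp, an antimicrobial peptide of neutrophil granules, gave -0.96, 0.13 and -0.04. Stfa1 was thus also lower in pair 2, where calprotectin was level. The highest by mean ratio were Il1r2, with -0.13, 0.71 and 1.30, Ltf and Prtn3. Ltf, the granule and milk protein lactoferrin, gave 0.01, -2.01 and 2.75, and Prtn3 gave -1.28, 0.05 and 1.94. Csf3r (0.42), Elane (0.25) and Trem1 (0.14) were higher in pair 1. Of other defining genes, Mmp8, Cebpe and Fpr2 were well above background on no array. Retnlg, named after its values were seen, was well above background only in the RANK+/+ RNA of pair 1, at a log2 intensity of 6.66 against 5.98 in its partner. The summed intensity of the list was 50200 to 67500 in the RNAs labeled RANK+/+ and 51900 to 80400 in those labeled RANK-/-, but Csf3r and Ltf carried 94.4% to 96.9% of it over the tested genes. Without these genes, left out after their values were seen, the other 11 tested genes summed to 3700 in the RANK+/+ RNA of pair 1, to 1970 and 2370 in the other RANK+/+ RNAs, and to 2140 to 2830 in the RNAs labeled RANK-/-. Neither Csf3r nor Ltf was lower in pair 1, so leaving them out tilts the sum toward genes that were lower there. No list held a gene called by limma, and the part of leukocytes in the calprotectin difference was not tested.

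Keratinocyte markers were examined because S100 genes are also active in skin. The epidermis list had 5 tested genes of 12 with a probe and a median of -0.48, -0.81 and 0.09. In pair 1, 4 of the 5 were lower. There 2 of the 5, Krtdap and Sbsn, fell at least 2-fold, against 2.84% of all genes. The lowest by mean ratio were all lower in pairs 1 and 2 and differed in pair 3. Krt10, a keratin of the outer epidermis, gave -0.36, -0.81 and -1.50, Sprr1a, a cornified envelope gene, gave -0.48, -2.78 and 1.20, and Krtdap, a keratinocyte differentiation gene, gave -1.51, -0.18 and 0.09. Sbsn gave -1.13, -0.17 and 0.71. Lor, another envelope gene, gave 0.48, -0.92 and -0.27. Among genes left out by the filter on dim probes, Sprr1b, Dsg1a and Dsc1 were well above background in pair 1 in the RANK+/+ channel only. Ivl, Sprr2d and Lce1a1 were well above background on no array. The part of these cells was likewise not tested.

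**Figure D3:**
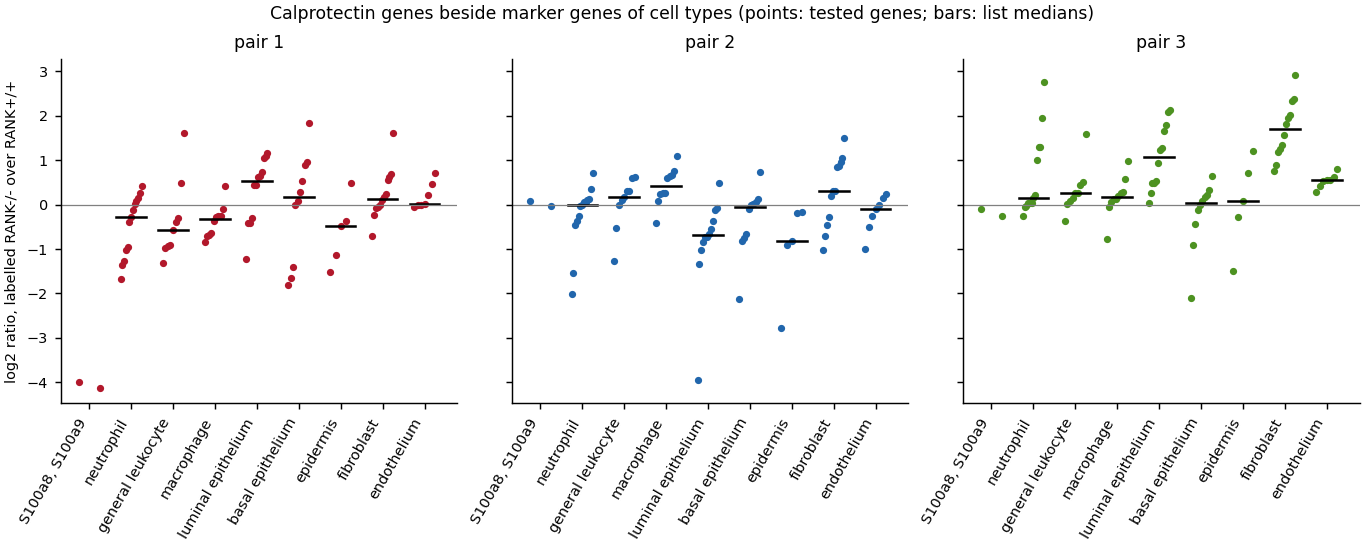
Log2 ratios of S100a8 and S100a9 beside those of the tested marker genes of 8 cell types in pairs 1 to 3 (one panel per pair; points are genes, bars are list medians). In pair 1 both calprotectin genes lie near -4.0, below every marker gene shown; in pairs 2 and 3 they lie near 0.

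The genes whose ratios came closest to calprotectin over the 6 arrays were ranked by Euclidean distance to the mean of S100a8 and S100a9. The 10 nearest lay 1.22 to 1.69 away, where the median gene lay 5.82 away and S100a8 and S100a9 each 0.19. Named genes among them were Csn2, the milk protein beta-casein, with -3.88, 0.66 and 0.39, Krt28, a hair follicle keratin, with -4.46, -0.83 and -0.03, Muc4, a membrane mucin, with -3.13, -0.70 and -0.30, and the homeobox gene Tlx1, with -2.89, 0.18 and -0.23. The other 6 were transcripts without a matched symbol. All of these rest on the same arrays, so the likeness is that of 3 pairs.

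S100a10 and S100a11 bind annexins at membranes, S100a10 as the partner of Anxa2. S100a10 was lower in the RNA labeled RANK-/- of all 3 pairs. Its log2 intensity was 12.63, 12.47 and 12.87 in those RNAs and 13.60, 12.71 and 13.27 in the RNAs labeled RANK+/+. The groups overlapped, because the lowest RANK+/+ RNA lay below the highest RANK-/- RNA. The ratios were -0.97, -0.24 and -0.40 (mean -0.54 ± 0.39 SD, n = 3, limma adjusted p = 0.999). Its SD between pairs was the lowest of the members. Without pair 1 the mean was -0.32.

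S100a11 gave no shared direction. It was at 13.85, 12.74 and 13.97 in the RNAs labeled RANK-/- and at 12.68, 13.59 and 13.86 in those labeled RANK+/+, so that the RANK-/- RNA was higher in pair 1 and lower in pair 2. The ratios were 1.18, -0.85 and 0.11 (mean 0.14 ± 1.02), and the mean turned to -0.37 without pair 1 and to -0.18 when arrays were median-centred in place of loess. It was the only member at least 2-fold higher in pair 1. Anxa2, the annexin held by S100a10, gave 0.48, -0.87 and -0.05, and Anxa1, which S100a11 binds, gave -1.12, -0.74 and 0.57.

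S100a4, which binds non-muscle myosin and is known from metastatic and mesenchymal cells, was among the steadiest members. Its brighter probe read 10.36, 9.95 and 10.36 in the RNAs labeled RANK-/- and 10.95, 9.96 and 10.04 in those labeled RANK+/+. The ratios were -0.59, 0.00 and 0.32 (mean -0.09 ± 0.46, n = 3), and the other probe gave -0.62, 0.22 and 0.23. The mean turned to 0.16 without pair 1, and the ratio of pair 3 to -0.25 under median centring. Myh9, the myosin heavy chain that S100a4 binds, gave 0.79, -0.46 and 0.64.

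S100a6, or calcyclin, is known for its rise in proliferating cells and its partner Cacybp. It read 15.41, 14.04 and 15.79 in the RNAs labeled RANK-/- and 15.95, 14.70 and 14.52 in those labeled RANK+/+. The ratios were -0.54, -0.66 and 1.27 (mean 0.02 ± 1.08), so that only pair 3 was higher in the RNA labeled RANK-/-. Without pair 3 the mean was -0.60, and under median centring it was -0.37. Cacybp gave -0.67, 1.09 and -0.75.

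S100a1 and S100a13 are head-to-head neighbors. S100a1 is known from muscle, where it acts on calcium release, and S100a13 takes part in the release of Fgf1 and Il1a. S100a1 was at 11.21, 9.98 and 11.20 in the RNAs labeled RANK-/- and at 10.23, 11.03 and 9.68 in those labeled RANK+/+. Pairs 1 and 3 were higher and pair 2 lower in the RNA labeled RANK-/-, with ratios of 0.97, -1.05 and 1.52 (mean 0.48 ± 1.35). Its other probe gave 0.94, -0.98 and 1.68. Without pair 3 the mean was -0.04.

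S100a13 had the same signs at a smaller size. It was at 12.26, 11.30 and 12.41 in the RNAs labeled RANK-/- and at 11.46, 11.77 and 11.32 in those labeled RANK+/+. The ratios were 0.80, -0.47 and 1.09 (mean 0.47 ± 0.83), and the mean was 0.17 without pair 3 and 0.94 without pair 2. Fgf1 gave 1.47, -0.60 and 0.37, and Il1a passed the background call on 1 of 6 arrays for each genotype.

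The starts of S100a1, on the minus strand, and S100a13, on the plus strand, face away from each other with 104 bases between them. This stretch is chr3:90514331-90514434 in GRCm38.p6, shown because the pair moved together, on the plus strand, with its 3 CpG dinucleotides in capitals.
S100a1 to S100a13: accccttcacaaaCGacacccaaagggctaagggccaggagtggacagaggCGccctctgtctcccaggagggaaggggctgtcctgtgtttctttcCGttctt
It holds no match (0) to the 6 motifs above. Over the 6 arrays the ratios of S100a1 lay closer to S100a13 (distance 1.07) than to any other member, and those of S100a13 lay closest to S100a16 (1.04). S100a11 and S100a16, which are not neighbors, lay 0.87 apart, so such likeness was not particular to the head-to-head genes. For scale, S100a8 and S100a9 lay 0.37 apart, and S100a9 and S100a1, the least alike, lay 7.76 apart.

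S100a14 and S100a16 are epithelial members, S100a14 in particular known from squamous and glandular epithelia. S100a14 was at 12.13, 9.92 and 12.40 in the RNAs labeled RANK-/- and at 13.43, 11.77 and 12.45 in those labeled RANK+/+. It was lower in the RNA labeled RANK-/- by 2-fold or more in pairs 1 and 2 and level in pair 3, with ratios of -1.30, -1.85 and -0.04 (mean -1.07 ± 0.93 SD, n = 3). In limma the p was 0.0476 before and 0.999 after adjustment. Without pair 3 the mean was -1.58, and without pair 2 it was -0.67. The ratio of pair 3 ran from -0.73, under median centring, to -0.02 over the background and normalization settings tried.

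S100a16 was at 14.09, 12.28 and 13.39 in the RNAs labeled RANK-/- and at 13.35, 13.21 and 12.87 in those labeled RANK+/+. The ratios were 0.73, -0.93 and 0.52 (mean 0.11 ± 0.91). Its other probe gave 0.04, -0.34 and 0.37, up to 0.69 apart from the first, so the size of its differences depends on the probe. The mean was -0.20 without pair 1, -0.10 without pair 3 and -0.18 under median centring.

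S100a1, S100a13, S100a16 and S100a11 shared their signs, higher in the RNA labeled RANK-/- of pairs 1 and 3 and lower in that of pair 2. The share of all genes with these signs was not counted, so they are not shown to be particular to these members. Over all genes, the ratios correlated at -0.278 between pairs 1 and 2, 0.178 between pairs 1 and 3 and -0.0792 between pairs 2 and 3. The pair 3 sign did not hold for every member. In pair 3 S100a16 turned to -0.24 under median centring. S100a11 turned to -0.73 under median centring, -0.12 with the authors' own log2 ratios and -0.01 with Agilent's processed signals. Luminal epithelial markers had medians of the same signs, 0.54, -0.69 and 1.07, over 12 tested genes. Muc1, a membrane mucin of luminal cells, gave 1.16, -1.03 and 1.78. Krt19, a keratin of simple epithelia, gave -1.22, -3.95 and 0.03, the signs of S100a14 in pairs 1 and 2. The summed luminal intensity was 355000, 200000 and 530000 in the RNAs labeled RANK-/- and 289000, 346000 and 218000 in those labeled RANK+/+, and the part of epithelial content in the S100 ratios was not tested. All 12 tested genes of the fibroblast list were higher in pair 3 (median 1.69, against 0 for all genes), with medians of 0.13 and 0.30 in pairs 1 and 2. All 12 luminal and all 7 endothelial genes were also higher in pair 3, so this was not particular to fibroblast genes. Of the other lists, 8 of 9 leukocyte, 8 of 10 macrophage and 10 of 13 neutrophil genes were higher in pair 3. So were 5 of 10 basal and 3 of 5 epidermis genes. S100a6 was higher in pair 3 too, at 1.27, or 0.30 under median centring, and a link to any list was not tested. Basal epithelial and endothelial lists had medians of 0.17, -0.06 and 0.03, and of 0.02, -0.10 and 0.55. The basal genes split in pair 1. The keratins Krt5, Krt14 and Krt17 gave -1.41, -1.81 and -1.66, the only 3 of 10 tested genes lower there. A fall of at least 2-fold was seen for 2.84% of all genes in that pair. Other basal genes rose, up to 1.84 for Oxtr. A link of the basal keratins to calprotectin was not tested.

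**Figure D4:**
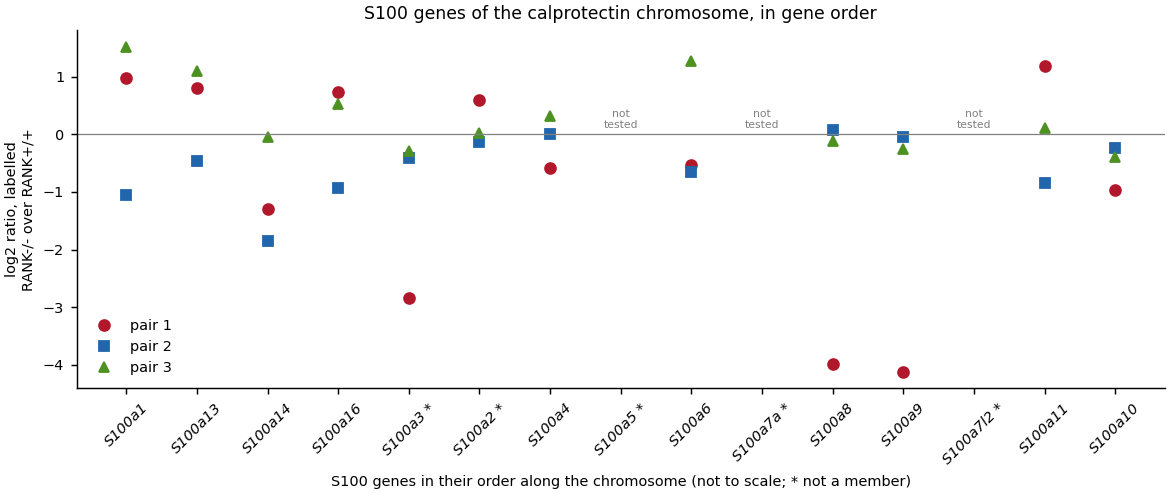
Log2 ratios of the S100 genes on the chromosome of S100a8 in pairs 1 to 3, in their order along the chromosome and not to scale; asterisks mark genes outside the 10 members. S100a3, S100a8 and S100a9 lie low in pair 1, while the tested genes between them lie closer to 0.

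Counted by pair, 4 members differed at least 2-fold in pair 1 (S100a8, S100a9 and S100a14 lower, S100a11 higher), against 6.50% of all genes. In pair 2 there were 2 (S100a1 and S100a14, both lower), against 4.82%, and in pair 3 there were 3 (S100a1, S100a6 and S100a13, all higher), against 7.92%. Of the 10 members, 7 differed at least 2-fold in 1 or more pairs, as did 15.0% of all genes and 18.1% of the brightest 11252. None (0) differed 2-fold the same way in all pairs, where 0.04% of all genes were higher and 0.0489% lower. S100a9, S100a10 and S100a14 were lower in the RNA labeled RANK-/- of every pair, 3 of 10 members, where 9.65% of all genes were, although S100a9 lay at -0.04 in pair 2 and S100a14 at -0.04 in pair 3. No member (0 of 10) was higher in every pair, where 9.93% of all genes were. S100a4 and S100a10 were the members with an ordinary spread, their SDs lying at the 66.8 and 58.1 percentiles of all genes, while the other 8 lay at the 89.2 percentile or above.

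**Figure D5:**
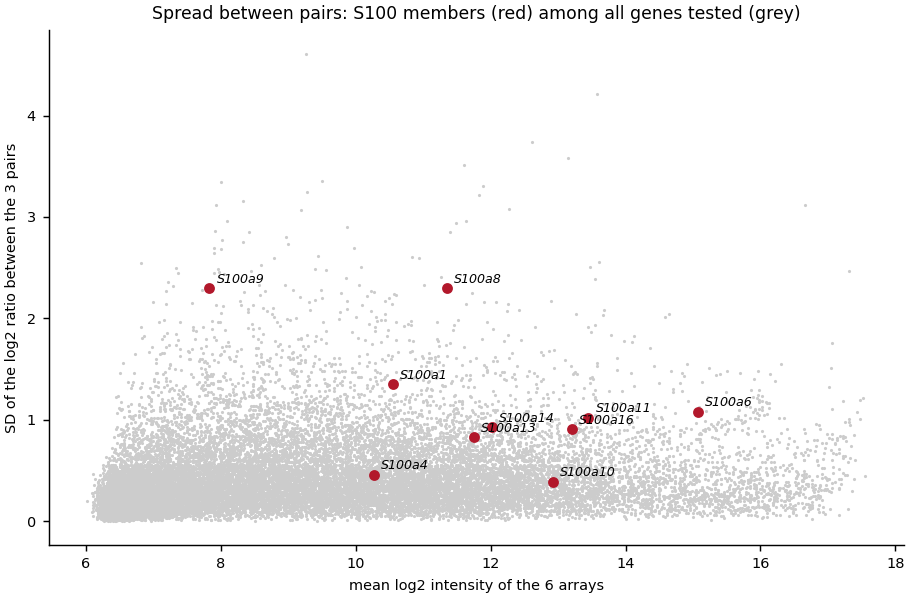
SD of the log2 ratio between the 3 pairs against the mean log2 intensity over the 6 arrays, for the S100 members (red) and the 22503 genes tested (grey). S100a8 and S100a9 lie at 2.30, S100a1 at 1.35, and S100a10 at 0.39 within the bulk of the genes.

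All 10 members lie on 1 chromosome, with 5 further S100 genes of the table among them, and not all of them followed calprotectin. S100a3, a gene of the hair cuticle, followed calprotectin, with ratios of -2.84, -0.41 and -0.29 and a log2 intensity of 10.81 in the RANK+/+ RNA of pair 1, 7.18-fold above the next RNA. S100a6, S100a4 and S100a2, which lie between S100a3 and S100a8, gave -0.54, -0.59 and 0.59 in pair 1. S100a7a, directly beside S100a8 and known from inflamed epidermis, did not pass the filter on dim probes. Its ratio in pair 1 was -0.94, and it was well above background only in the RANK+/+ RNA of that pair, at a log2 intensity of 6.91 against 5.85 to 6.05 in the other 5 RNAs. S100a11, on the far side of calprotectin, gave 1.18. S100b, on another chromosome and known from glia and myoepithelium, went the other way, with ratios of 3.78, 0.74 and 0.06. Its log2 intensity was 9.32 in the RANK+/+ RNA of pair 1, 11.35 and 11.57 in the other RANK+/+ RNAs, and 13.10, 12.09 and 11.62 in the RNAs labeled RANK-/-. Of the 8 other S100 genes, 5 were tested and none passed limma (0 of 5). S100a7l2 was well above background on no array.

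Partners and receptors of S100 proteins gave 17 tested genes of 21, none called by limma, with list medians of 0.14, -0.31 and 0.27. The highest mean ratios were those of Fgf1 (0.41), Myh9 (0.32) and Ly96 (0.30), the co-receptor of Tlr4. The lowest were those of Anxa1 (-0.43), Ahnak (-0.21), a scaffold bound by S100a10 with Anxa2, and Bsg (-0.17), a receptor of S100a9. Of the calprotectin receptors, Tlr4 gave 0.19, -0.57 and 0.55. Ager did not pass the filter on dim probes. Plg, the plasminogen whose activation S100a10 promotes, was well above background on no array.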

How the data were processed

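The 6 2-color Agilent arrays (3 pairs of RNAs, 2 technical arrays each) were used. The authors scanned them and extracted spots with Feature Extraction 10.7.3.1, which gave deposited median spot intensity and background per channel, not normalized; the deposited processed intensity, log10 ratio and the authors' normalized log2 ratios served as alternatives only. The study's methods describe dye swaps, but the labels show none within a pair. With limma 3.58.1 in R 4.3.3 and data.table (version 1.17.8), median signals were corrected by normexp (offset 50), normalized by intensity loess and Aquantile, outlier spots removed, ratios turned to RANK-/- over RANK+/+, and arrays A and B averaged (n = 3). A probe was kept if Feature Extraction rated it well above background in one genotype's channel, with both arrays agreeing, for 2 or more pairs (30230 probes), and the brightest stood for a gene. Symbols came from RefSeq (GRCm38.p6) by accession, which matched 28026 probes; the array grid names mm9, so no gene coordinates are given apart from the promoter table's own.

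Tests were limma on the pair ratios (two-sided, threshold 0.05, Benjamini-Hochberg), a rank product (500 seeded draws, threshold 0.05) and limma's F test between pairs. An exact sign-flip test of 3 pairs cannot go below p = 0.25. Scripts were tested on simulated data. The number of arrays limits the precision. The members and gene lists were chosen with earlier results of these data known. The rule named all members, Tnfrsf11a, up to 3 genes of highest and 3 of lowest mean ratio per list, list genes not above background, and the 10 genes nearest calprotectin. It set an upper number only. Which genes within it were printed was chosen with values known, and no tested macrophage, fibroblast or endothelial gene was named. Partners of a member and Retnlg, Ptprc, Lcp1, Cytip, Csf3r, Elane, Trem1, Lor, S100a7a and Tlr4 were named beside the rule after values were seen. So were Padi4, Sprr1b, Dsg1a and Dsc1. Alternatives covered background, normalization, filter, probe choice, technical arrays, dye term, left-out pairs and the replicate block.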

Additional observations from a re-analysis of the deposited data

How the results depend on the processing

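The limits are few pairs, 1 slide and a dye arrangement that changes with pair 1. No S100 member passed limma or the rank product under any alternative in which each was run (0 in each), and 9 or 10 members kept a difference between pairs. Over all genes, limma called 298 with the 6 arrays as separate replicates and 13 with pair as a random block, against 0. Members at least 2-fold different in pair 2 numbered 4 with Agilent's processed signals and 5 with median centring in place of loess, against 2, and 1 in pair 3 with median centring, against 3. At least 2-fold the same way in all pairs left in were 0 to 1 members when one pair was left out, the 1 being without pair 3. The mean ratio of S100a6 turned to -0.00085 with normexp offset 0, -0.0031 with the authors' own log2 ratios, -0.37 with median centring and -0.12 with a dye term. With median centring S100a11 and S100a16 were both at -0.18. Leaving out one pair at a time gave -0.04 to 1.25 for S100a1, -0.29 to 0.16 for S100a4, -0.60 to 0.36 for S100a6, -0.37 to 0.64 for S100a11 and -0.20 to 0.63 for S100a16. The dye term moved the mean of S100a8 from -1.35 to -2.01 and that of S100a9 from -1.47 to -2.13 (limma adjusted p = 1 for both). S100a9 was lost under the strictest filter. Mean spot signals were not used here.

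The 2 RNAs of a pair share arrays and a number. Their deviations from the genotype means correlated at -0.0335, -0.218 and -0.0412 across genes in pairs 1, 2 and 3, and the labels tie a number to shared arrays only. Without the replicate block, with the channels as 3 and 3 separate samples, limma gave S100a8 a mean of -1.35 and S100a9 a mean of -1.47, and 0 genes were called, as with the pairing.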

Other observations

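An S100 gene outside the 10 members gave values that belong to no comparison. S100g, the calcium carrier calbindin of gut and uterus, gave ratios of -0.61, -0.59 and 1.41, the signs of S100a6, and its other probe gave -0.38, -0.66 and 1.19. Its RANK-/- channel was well above background on 3 of 6 arrays and its RANK+/+ channel on 4 of 6.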
